A study of Sus scrofa with 12 samples.

Results

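ACTB, GAPDH and HPRT are 3 of the 188 gene probes on a spotted cDNA array for pig immune genes, and they are the probes under which the array lists these reference gene names (identifiers HK1, HK2 and HK5). They were taken by their names on the array, but they were chosen by values already known: the wide spread of the ACTB ratio between genotypes, and ratios near 0 for GAPDH and HPRT. The genotype ratios are therefore given as a description without a test. The arrays compared blood mononuclear cells of Yorkshire boars of 3 SLA-DRB1 genotypes, SLA-DRB1 coding for one of the chains of the pig class II molecule DR. The genotypes were allele 050502, allele 070701 and an allele the labels call potentially new (here New), each with 2 animals. Cells were separated from blood on a density gradient, with no other treatment, and the RNA was amplified before labelling. For each genotype pair, animals were hybridised against each other in 2 pairs, called A and B here, and all 6 hybridisations were repeated with the dyes exchanged, giving 12 arrays. Which hybridisations share an animal is not stated in the labels, and the ages of the boars are not given there.

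Reference genes are transcripts used as a common scale when expression is compared between samples, on the assumption that their level changes little. ACTB encodes beta actin, a subunit of the actin filaments that give cells their shape and drive their movement. GAPDH encodes glyceraldehyde-3-phosphate dehydrogenase, an enzyme of glycolysis, and HPRT (HPRT1 among the RefSeq symbols for assembly Sscrofa11.1) encodes hypoxanthine phosphoribosyltransferase, which recycles purine bases. In white blood cells, beta actin is known for its part in migration, cell contacts and phagocytosis. The probe sequences are not given in the sources used here, so it is not known which related transcripts, such as other actins or processed pseudogene copies, each probe could bind.

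Red channel medians over all spots of an array were 382 to 2004, with backgrounds of 96 to 320, and green channel medians were 498 to 2078.5, with backgrounds of 113 to 359.5. Of the 188 gene probes, 185 were above background on at least 6 arrays and were analysed, all 3 reference genes among them. Among markers of the labelled cells, the T cell receptor probe TCRb and Granzyme of cytotoxic cells were above background on 12 of 12 arrays. CD3d and CD14 were so on 11. VapA and pACYC177, negative-control DNAs with no counterpart in pig cells, also exceeded background in most spots. These were 161 and 176 of 192 spots in red and 165 and 177 in green. Being above background therefore does not show that a marker was expressed. TCRb had a mean log2 intensity of 13.15, against at most 11.34 for pACYC177 on any array. The hybridised pairs A and B of 050502 vs New ran against each other over the 185 probes (r = -0.54), while those of 050502 vs 070701 and of 070701 vs New ran together (r = 0.60 and 0.64). The direction of 050502 vs New is therefore not settled, and its values are given as labelled and again with pair A turned.

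Each reference gene had 16 spots on every array, 192 over the 12 arrays. All 192 ACTB spots and all 192 GAPDH spots exceeded background by more than 2 background SD in both channels, and so did 184 HPRT spots in red and 183 in green. No spot of the 3 genes was marked as not found. The median background-subtracted signal of ACTB, in scanner units over the 12 arrays and both channels, ran from 2183 to 29872 with a median of 8673. That of GAPDH ran from 4910 to 42413 with a median of 20150, and that of HPRT from 569.5 to 4113 with a median of 1996. Scanner settings differ between arrays, so these signals describe brightness and not expression.

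At the bright end, GAPDH reached the ceiling of the scanner. It had 37 spots with saturated pixels on 7 arrays, with up to 49% of a spot's pixels, and ACTB had 1 such spot. HPRT had none and lay closer to the floor. Its mean log2 intensity exceeded that of pACYC177, a plasmid DNA spotted as a negative control, by 0.19 to 1.28 on the 12 arrays (median 0.70). For ACTB the same distance was 1.68 to 4.24 and for GAPDH 3.29 to 5.22.

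The measured ACTB ratios were larger in size than those of nearly all other probes analysed, as was known when the gene was chosen. Between 050502 and 070701, the ACTB signal on arrays A1, A2, B1 and B2 was 7102, 7528.5, 9796 and 12353 in the channel of 050502 and 3301.5, 5485, 8583.5 and 15830 in that of 070701. After normalization within each array the log2 ratios of 050502 over 070701 were 1.13, 0.91, -0.54 and -0.27. The arrays of pair A were thus both above 0 and those of pair B both below it. The averaged log2 ratios were 1.02 for A and -0.41 for B, with a mean of 0.31 (1.24-fold, SD 1.01, n = 2 hybridised pairs), so the direction rests on which pair of animals is read.

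Between 070701 and New, the ACTB signal was lower in the channel of 070701 on all 4 arrays. It was 8762, 13179, 2781.5 and 5002 there, against 21917, 29555, 10666 and 18940.5 in the channel of New. The log2 ratios of 070701 over New were -0.98, -0.86, -2.26 and -1.98 on arrays A1, A2, B1 and B2. Their mean of -1.52, or 2.87-fold less beta actin in 070701, had an SD of 0.85 (n = 2 hybridised pairs), from -0.92 in pair A to -2.12 in pair B. Both pairs had the same direction, at sizes that differed by more than 1 on the log2 scale.

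Between 050502 and New, the ACTB log2 ratios were 0.16 and 0.37 on the arrays of pair A and -1.23 and -1.14 on those of pair B. On array B1 the signal was 5207.5 in the channel of 050502 and 29872 in that of New, whereas on array A1 it was 2183 and 2193. The mean ratio of 050502 over New was -0.46 (SD 1.03, n = 2 hybridised pairs) as labelled and -0.73 with pair A turned. In bulk RNA of mononuclear cells, fewer cells rich in a transcript and less of it in each cell cannot be told apart.

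**Figure D1:**
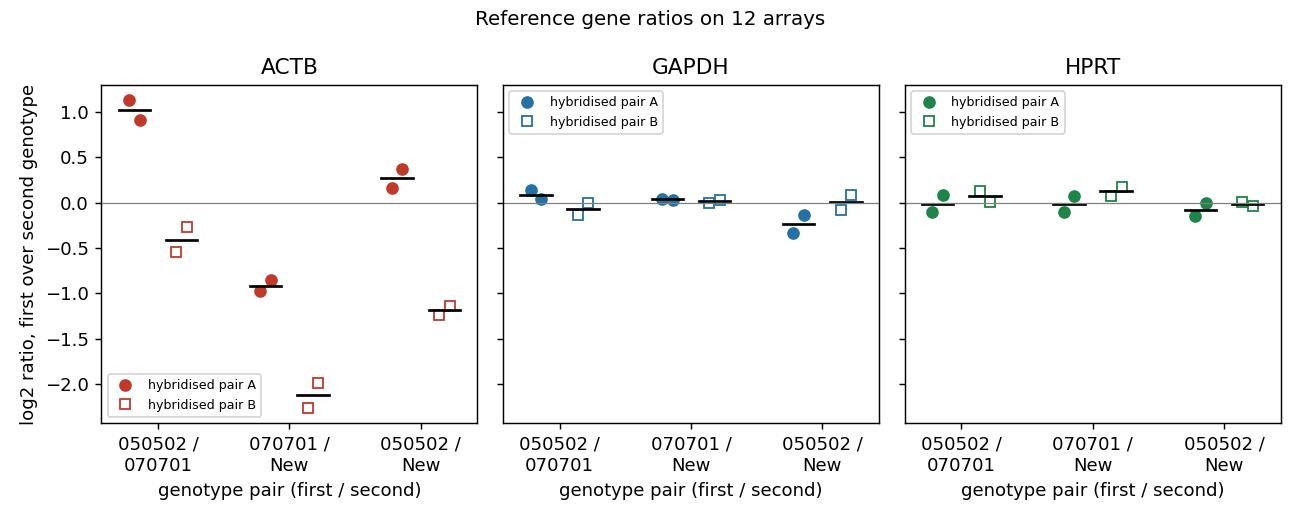
Log2 ratio of the first-named over the second-named genotype for ACTB, GAPDH and HPRT, 1 point per array, filled circles for hybridised pair A and open squares for pair B, with a bar at the mean of each pair. ACTB pairs lie between -2.12 and 1.02, whereas the pairs of GAPDH and HPRT lie between -0.23 and 0.13.

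GAPDH ratios were close to 0. On arrays A1, A2, B1 and B2 the log2 ratios of 050502 over 070701 were 0.14, 0.04, -0.14 and 0.0004, with a mean of 0.01 (SD 0.11). Those of 070701 over New were 0.04, 0.03, -0.003 and 0.03, with a mean of 0.03 (SD 0.02), the smallest spread of GAPDH in any genotype pair. Between 050502 and New the ratios were -0.33, -0.13, -0.08 and 0.09. Here the mean was -0.11 (SD 0.17) as labelled and 0.12 with pair A turned, each over 2 hybridised pairs.

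HPRT ratios lay between -0.15 and 0.17 on all 12 arrays. The log2 ratios were -0.10, 0.08, 0.13 and 0.01 for 050502 over 070701 on arrays A1, A2, B1 and B2, with a mean of 0.03 (SD 0.06). They were -0.11, 0.08, 0.08 and 0.17 for 070701 over New, with a mean of 0.06 (SD 0.10). They were -0.15, -0.003, 0.004 and -0.04 for 050502 over New, with a mean of -0.05 (SD 0.04) as labelled and 0.03 with pair A turned. The largest of these means, as labelled, was 1.04-fold, for 070701 over New.

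In limma's fit over the 185 probes, 0 of the 3 reference genes was called between 050502 and 070701 or between 070701 and New, where 1.08% of all probes were called, and 0 between 050502 and New, where 0% were. At an unadjusted p under 0.05 the counts over all probes were 15, 14 and 15. ACTB between 070701 and New was the 1 reference gene among them. The genotype ratios were used for the choice of the genes, so nothing is read from these counts.

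The size of the genotype ratios was summarised as the root mean square (RMS) of the log2 ratio over the 6 hybridised pairs, which is the same whichever genotype is put on top. It was 1.16 for ACTB, 0.11 for GAPDH and 0.07 for HPRT, against a median of 0.16 over the 185 probes and an interval from the 10th to the 90th percentile of 0.07 to 0.55. Counted from the smallest, HPRT held place 12, GAPDH place 48 and ACTB place 182. Among the 185 probes, only IL1b and IL8, both inflammatory cytokines, and MPIb had a larger value than ACTB. The negative-control DNAs VapA and pACYC177, which have no counterpart in pig cells, had RMS ratios of 0.08 and 0.08. HPRT was thus no less even than spots that carry no pig transcript, and of the 3 genes its signal lay nearest to theirs. Among the 49 probes brighter than both of these controls, 0 had a smaller RMS than HPRT and 3 a smaller one than GAPDH. The 3 genes were chosen with these ratios known, so their places follow from the choice and are no test of the genes.

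**Figure D2:**
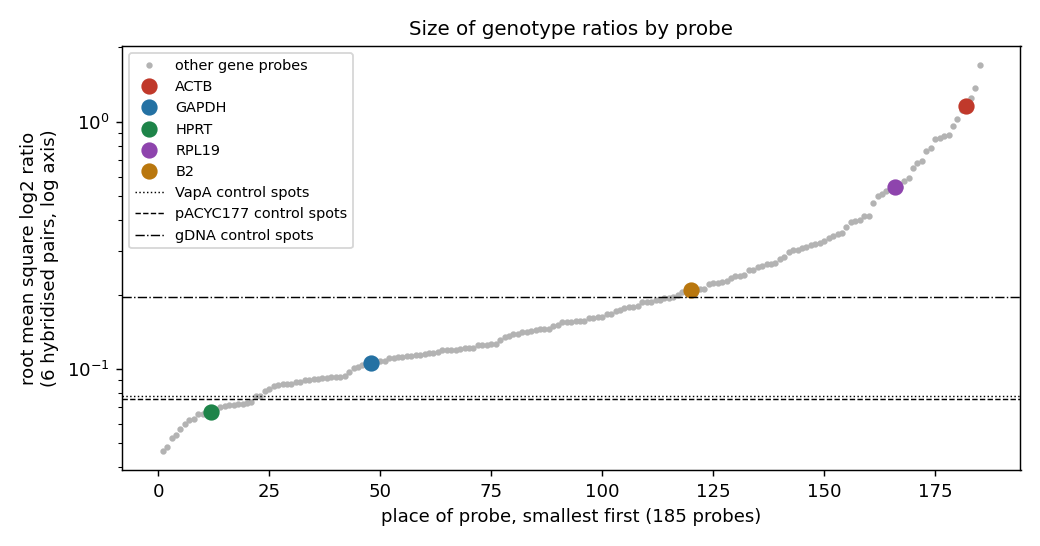
RMS log2 ratio over the 6 hybridised pairs for each of 185 probes in order of size, on a log axis, with the probes whose identifier begins with HK in colour and control spots as horizontal lines. HPRT (0.07) and GAPDH (0.11) lie in the lower part, B2 (0.21) and RPL19 (0.54) above the median and ACTB (1.16) near the top. ACTB, GAPDH and HPRT were chosen with these ratios known.

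How close GAPDH stayed to 0 depended on the normalization. It fits a curve of ratio against intensity within each array, and the 16 bright spots of GAPDH take part in that fit. When the curve was fitted without the spots of the 3 reference genes, the RMS of GAPDH was 0.19, at place 115, with a ratio of -0.32 in pair B of 050502 vs 070701. When arrays were centred on their median ratio, with no curve, the RMS of GAPDH was 0.35, at place 147, and all 6 hybridised pairs had a negative ratio, from -0.06 to -0.62. The mean ratios were then -0.27 for 070701 over New and -0.50 for 050502 over New. With the authors' deposited values, centred in the same way, its RMS was 0.44. Without all 5 probes of the array's HK series, the RMS was 0.19 and the mean ratio of 070701 over New 0.22. HPRT had an RMS of 0.08, 0.07 and 0.07 with median centring, with the deposited values and without the 3 genes' spots, at places 21, 14 and 13. ACTB had an RMS of 1.30, 1.34 and 1.20 in these settings, at places 183, 184 and 182.

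The array carries a pair of further probes in its HK series, chosen after their values were seen: RPL19 (HK4), a protein of the large ribosomal subunit, and B2 (HK3), whose gene the array does not spell out. None of 23 other reference genes listed for this purpose was on the array by name. RPL19 had an RMS of 0.54, at place 166, and B2 of 0.21, at place 120. The RPL19 log2 ratio was 0.04, 0.07 and -0.15 in pair A of 050502 vs 070701, 070701 vs New and 050502 vs New, and 0.67, 0.73 and 0.87 in pair B. Over the 6 hybridised pairs its ratios ran opposite to those of ACTB (uncentred correlation -0.77, n = 6). The 6 values of each gene share their arrays, animals and normalization curves.

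The gap between the hybridised pairs of a comparison was similar in all 3 comparisons for ACTB. On the log2 scale, pair A minus pair B was 1.43 in the comparison of 050502 with 070701, 1.20 in that of 070701 with New and 1.45 in that of 050502 with New, the last 0.92 with pair A turned. For RPL19 the gaps were -0.63, -0.65 and -1.03, the last -0.72 when turned. GAPDH had gaps of 0.16, 0.02 and -0.24, and HPRT of -0.08, -0.14 and -0.06, with the last of each changing sign when turned. The mean size of the gap was 1.36 for ACTB, 0.14 for GAPDH and 0.09 for HPRT, against a median of 0.16 over the 185 probes. A gap of 1 sign in all 3 comparisons was found for 74 of the 185 probes, so the shared sign was not particular to ACTB. The 2 arrays of a dye exchange, which hold the same RNA, differed in ACTB by 0.09 to 0.28 (median 0.21), in GAPDH by 0.01 to 0.20 and in HPRT by 0.04 to 0.19. The gap between pairs of animals was thus several times that between arrays of the same RNA for ACTB and of similar size for GAPDH and HPRT. These are unlike measures: the first is taken between averages of 2 arrays, the second between single arrays and includes the dye effect.

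**Figure D3:**
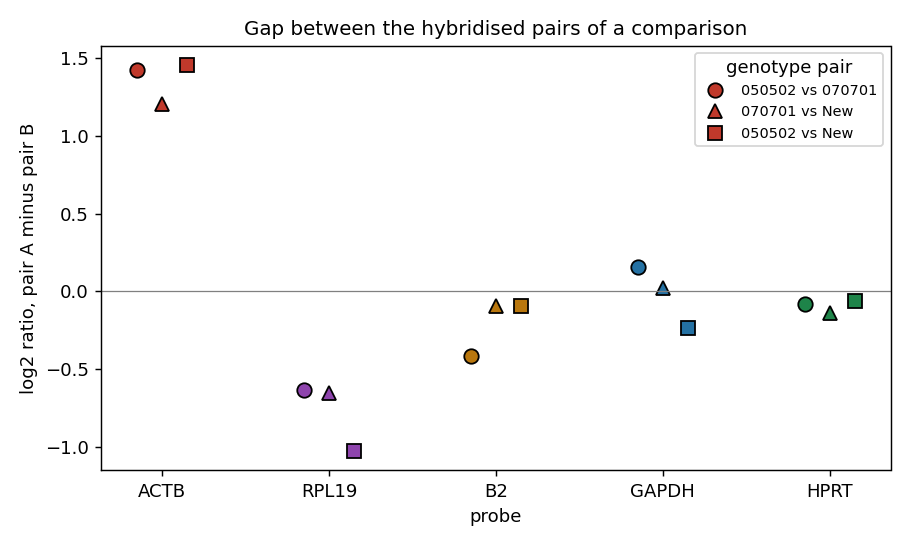
Log2 ratio of hybridised pair A minus that of pair B for the 5 HK probes, with a circle, a triangle and a square for the 3 genotype pairs as labelled. The ACTB gaps lie between 1.20 and 1.45, those of RPL19 between -1.03 and -0.63, and those of GAPDH and HPRT between -0.24 and 0.16.

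The submitters' design text states that every animal was hybridised with animals of both other genotypes, without saying which. Under that design the mean ratios of a gene around the loop of 3 genotypes should add up to 0 apart from error. The mean ratio of 050502 over 070701, plus that of 070701 over New, minus that of 050502 over New, came to -0.75 for ACTB, 0.15 for GAPDH and 0.13 for HPRT. With pair A of 050502 vs New turned, the sums were -0.49, -0.08 and 0.06. Over the 185 probes the SD of this sum was 0.29 as labelled and 0.15 turned. By absolute size, counted from the smallest of the 185 probes, ACTB held place 180 as labelled and place 185 turned. GAPDH held places 115 and 92, and HPRT places 108 and 55.

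A dye effect is a measure that the choice of the genes did not use, since the genotype ratio cancels in the mean of a dye exchange. Over the 6 hybridised pairs, ACTB was brighter in red than in green by 0.08 on the log2 scale (95% interval -0.004 to 0.16, red higher in 5 of 6 pairs, limma adjusted p = 0.38, 0.39 to 0.84 over the other settings tried). The effect of GAPDH was 0.05 (interval -0.01 to 0.12, 6 of 6 pairs, adjusted p = 0.44, 0.50 to 0.83 over the other settings), and that of HPRT was -0.02 (interval -0.10 to 0.06, red higher in 2 of 6 pairs, adjusted p = 0.72, 0.74 to 1.00 over the other settings). None of the 3 passed, in a fit that called 0% of the 185 probes, or 21 at an unadjusted p under 0.05 in limma. The dye effect of ACTB was small beside its genotype ratios.

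Each gene was spotted in print rows 1 and 21 of all 4 blocks, 8 spots per row, and these positions differed in brightness. ACTB was dimmer in row 21 in 24 of 24 array channels, at 0.481 to 0.831 of its signal in row 1 (median 0.675). GAPDH was brighter there in 24 of 24 channels, by 1.55 to 2.51 times (median 2.10), and HPRT likewise, by 1.55 to 5.52 times (median 2.58). The log2 ratios of ACTB had the same sign at both positions on 12 of 12 arrays and an RMS of 1.24 in row 1 and 1.08 in row 21. The positions differed by a median of 0.19 for ACTB, 0.12 for GAPDH and 0.13 for HPRT, which for GAPDH and HPRT is as large as the ratios themselves. The sign of their ratio was the same at both positions on 6 and 8 of 12 arrays. Within an array, the SD over the 16 spots had a median of 0.13 for ACTB, 0.11 for GAPDH and 0.17 for HPRT.

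**Figure D4:**
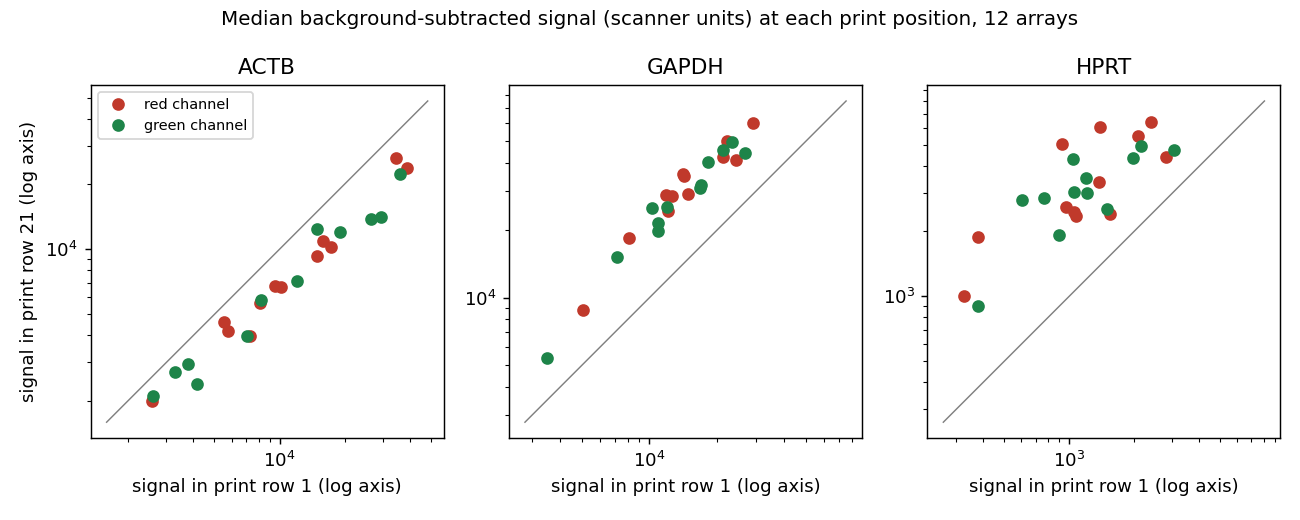
Median background-subtracted signal of each reference gene in print row 21 against print row 1, in scanner units on log axes, 1 point per array and channel (12 arrays), with the line of equality. ACTB lies below the line in 24 of 24 channels, and GAPDH and HPRT above it in 24 of 24.

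Probes with a pattern like that of a reference gene were ranked by the uncentred correlation over the 6 hybridised pairs, among probes with an RMS of at least 0.3. Nearest to ACTB stood CH, whose gene the array does not spell out (0.93), MHC-DM, which loads peptides onto class II molecules (0.84), and CD72, a B cell surface protein (0.81). CH and MHC-DM were also among the 3 nearest over the 12 single arrays, CD72 was not. The CH ratios were 0.47, 0.13, -0.27, -0.65, -0.09 and -0.44 for pairs A and B of 050502 vs 070701, 070701 vs New and 050502 vs New; they were smaller than the ACTB ratios in all 6 pairs and of the other sign in 2 of them, pair B of 050502 vs 070701 and pair A of 050502 vs New. Most opposite to ACTB was IL16, a cytokine that attracts CD4 T cells (-0.94). Nearest to GAPDH were MIF (0.75), IgM (0.65) and Casp13A (0.64), and nearest to HPRT were TLR2 (0.62), RPL19 (0.61) and Bcl-2 (0.56). Over the 12 single arrays Casp13A (0.25) was not among the 3 nearest to GAPDH, while the rest kept their place among the nearest. MIF and IgM were dim, at mean log2 intensities of 8.40 and 8.36 against 10.67 for HPRT. Both were dimmer on average than either negative-control DNA, and CD72, at 9.25, was dimmer than pACYC177. GAPDH and HPRT, with RMS ratios of 0.11 and 0.07, would not reach the 0.3 asked of the other probes. Likeness to them therefore rests on ratios near 0.

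Cell type markers also differed between the hybridised pairs. The median ratio of 11 T cell probes ranged over the 6 hybridised pairs from -0.16 to 0.11, and 5 of the 11 were above background on all 12 arrays. That of 4 B cell probes ranged from -0.47 to 0.09 and that of 7 monocyte and dendritic cell probes from -0.22 to 0.44, with 3 of each list above background on all arrays. The value of -0.22 belongs to pair A of 050502 vs New, whose direction is not settled. In the other hybridised pairs the monocyte and dendritic cell median ran from 0.06 to 0.44. In that pair A the T cell and B cell medians were 0.04 and -0.13 as labelled. Being above background is a weak limit here, as only 49 of the 185 probes were brighter on average than both negative-control DNAs. In the lists, CD5, CD4, CD86, IgM and a CD28 probe were dimmer than both, and CD72 and CD80 were dimmer than pACYC177. TCRb and TLR2 were brighter than both. The list medians therefore rest in part on probes at the level of the controls. The largest genotype ratios in the lists were 0.63 for TCRg (070701 vs New), -0.64 for IgG2a (050502 vs New, as labelled) and 1.88 for IL1b (050502 vs 070701). IL1b is an inflammatory cytokine, and the median of its list in that comparison was 0.26. Granzyme, the only natural killer marker measured, ranged from -0.40 to 0.46. No marker of neutrophils, platelets or red cells from the lists was matched by name among the probes analysed. The neutrophil list held the IL8 receptors CXCR1 and CXCR2, and the probe IL8R was analysed, above background on 11 of 12 arrays. IL8R was dimmer on average than pACYC177. Its ratios in pairs A and B were 0.05 and 0.99 for 050502 over 070701 and -0.25 and 0.02 for 070701 over New. For 050502 over New they were -0.08 and 0.77 as labelled. Lactoferrin, a neutrophil protein on the array, was above background on 0 of 12 arrays. The part of the cell makeup in the ACTB ratios was not tested.

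The choice of reference gene changed the ratios of other genes. Scaling here subtracts the ratio of the reference gene in each hybridised pair. It was run only on the loess ratios, in a fit where the GAPDH spots take part. The GAPDH RMS was 0.11 there and 0.35 with median centring, so the small effect of scaling to GAPDH holds for the loess ratios only. The genes were chosen with these ratios known, wide for ACTB and near 0 for GAPDH and HPRT. How far a scaled ratio and its SD move follows from that choice and is no test of the genes. MHC-DQ, which shows peptides to CD4 T cells, serves as the example. Its own ratios ran with those of ACTB (uncentred correlation 0.68, n = 6 hybridised pairs that share their arrays). Its log2 ratio was 1.30 (SD 0.05) for 050502 over 070701 and -1.37 (SD 0.16) for 070701 over New, each over 2 hybridised pairs. Scaled to GAPDH in each hybridised pair these became 1.29 (SD 0.16) and -1.40 (SD 0.18), and scaled to HPRT 1.27 (SD 0.01) and -1.43 (SD 0.06). Scaled to ACTB they became 0.99 (SD 1.06) and 0.15 (SD 1.01), with pair A at -0.57 and pair B at 0.86 for 070701 over New. For 050502 over New the ratio was -0.35 (SD 0.15; -0.11 with pair A turned). It became -0.30 (SD 0.20; -0.14 turned) scaled to HPRT, -0.24 (SD 0.32; -0.23 turned) scaled to GAPDH and 0.11 (SD 0.87; 0.62 turned) scaled to ACTB. Scaling to the mean of the 3 genes gave 1.18 (SD 0.40) for 050502 over 070701 and -0.89 (SD 0.42) for 070701 over New.

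Scaling subtracts the same value from every probe, so the counts that follow show the size of that shift and nothing about the probes. Of the 182 other probes analysed, 96 had a positive ratio of 070701 over New, against 182 of 182 once scaled to ACTB, 75 scaled to GAPDH and 58 scaled to HPRT. The median ratio of all 185 probes was then 1.53, -0.02 and -0.05, from 0.01 before scaling. For 050502 over 070701 the median was -0.31 on the ACTB scale.

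**Figure D5:**
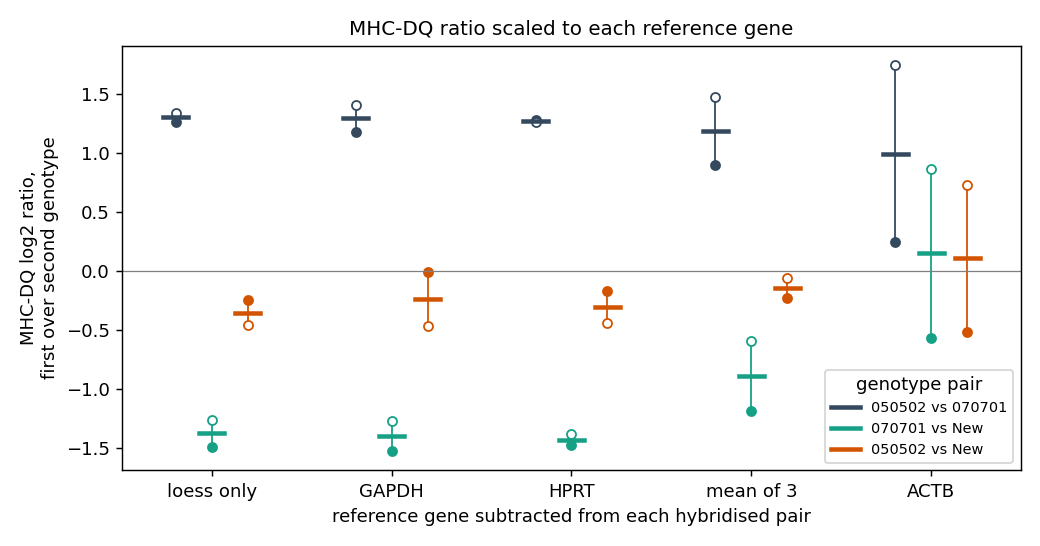
Log2 ratio of MHC-DQ for the 3 genotype pairs as labelled, with no scaling after normalization and after subtracting the ratio of GAPDH, HPRT, the mean of the 3 genes or ACTB in each hybridised pair. Filled points are pair A, open points pair B and bars their mean. For 050502 vs 070701 and 070701 vs New the SD is 0.01 and 0.06 when scaled to HPRT and 1.06 and 1.01 when scaled to ACTB. For 050502 vs New it is 0.15 unscaled, 0.20 scaled to HPRT and 0.87 scaled to ACTB. The genes were chosen with the subtracted ratios known, so the SDs only describe the subtraction.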

How the data were processed

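The spot intensity values were deposited unnormalized: per the file headers, slides were scanned at 635 and 532 nm and measured with GenePix Pro 6.0.1.25. Per the file headers, this software also wrote the percent of saturated pixels in a spot. The authors' deposited value table holds log2 ratios that equalled the scanner software's own within 0.001, neither centred nor turned, and served as an alternative. Foreground medians were corrected with normexp (offset 50) and normalized by global loess within each array, with control spots and spots not found at weight 0, in limma 3.58.1 (R 4.3.3). Replicate spots were averaged by probe, each array was read as first-named over second-named genotype, and both arrays of an exchange were averaged.

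Of 188 probes, 185 exceeded background by 2 SD in most spots of a channel on at least 6 arrays. The 6 averaged ratios were fitted with lmFit and eBayes, a coefficient for each genotype pair (3 residual degrees of freedom), two-sided, with Benjamini-Hochberg adjustment over the 185 probes and a threshold of 0.05. The dye effect was fitted as an intercept over the 6 exchanges. No animal term was possible, and p-values measure the spread between hybridised pairs only. The fit treats the 6 averaged ratios as independent, although under the design text comparisons share animals. The procedure was tested on simulated data. The genes, lists, tests and the rule for naming similar probes were chosen with earlier results of these data known. The number of arrays limits the precision.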

Additional observations from a re-analysis of the deposited data

How the results depend on the processing

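The RMS ratio of ACTB moved by less than the SD of its 6 absolute ratios (0.66) in every setting tried. It ran from 0.81 without every pair B to 1.42 without every pair A. The RMS ratio of HPRT also moved by less than that SD (0.05), from 0.05 without every pair B to 0.11 with the first array of each exchange. That of GAPDH, 0.11, became 0.35 with median centring, 0.44 with the deposited values and 0.19 with the loess curve fitted without the 3 genes' spots, a setting chosen after seeing the data. The dye effect of HPRT changed sign to 0.00268 without background correction, 0.0293 with median centring and 0.0447 with the deposited values. Counts of probes passing, 2 in 050502 vs 070701, 2 in 070701 vs New and 0 in 050502 vs New, moved as follows, in that order where 3 are given. Median centring left 1 for 050502 vs 070701, and the deposited values left 0 there and 1 for 070701 vs New. The first array of each dye exchange alone gave 1 and 1 for these comparisons, and so did the second. Scaling to ACTB left 0 and 0, scaling to the mean of the 3 genes gave 5 and 6, and scan date as a random block, which counts the arrays of an exchange as replicates, gave 6 and 9. Turning pair A of 050502 vs New gave 4, 2 and 4. Leaving out 1 hybridised pair at a time, chosen after seeing the data, gave 0 to 3, 0 to 3 and 0 to 2: the lone pair that stays is assumed to vary like the others. Each comparison with 070701 had 0 calls when either of its own pairs was left out, and 050502 vs New had 2 without its pair A. Leaving out every pair A or every pair B leaves no residual degrees of freedom, so those counts were not run. With the letters A and B as a replicate block the counts were 2, 3 and 0, and no count moved by over 1.5 times. The letters are not stated to mark shared animals, so the block is given only here. The gaps A minus B correlated between comparisons with r of 0.43 to 0.62 over the probes. On the 1 scan date that holds more than 1 genotype pair, ACTB was 1.02 for 050502 vs 070701 and -2.12 for 070701 vs New. Without pair A, ACTB was -0.41 in 050502 vs 070701, -2.12 in 070701 vs New and -1.19 in 050502 vs New. HPRT lies close to the control DNA. With saturated spots left out, the RMS of GAPDH was 0.11, as with them.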
